A study of Mus musculus with 2 samples.

Results

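Agt, Gdf10, Myoc, Rhcg, Padi2, Hhatl, Sned1 and Fam184b are 8 of the 32285 genes in the deposited matrices. They were picked because their levels in astrocytes of the 60TM library were among the lowest relative to the WT library, so that difference chose them and is given here as a description. The question was whether the lower levels lay within astrocyte states, defined by Lcn2, Tnc and Gfap, or in how many cells each state held. Both groups were hippocampal cells of 7-week-old mice: WT is the C57BL6/J strain, and 60TM is the GFAP-hGFAP line on the same background, a line the series presents as a model of Alexander disease, an astrocyte disorder caused by GFAP variants. What drives the transgene and how the line was founded is outside the labels used here. Each genotype has 1 library, pooled from 3 mice with no label tying a cell to a mouse, made from papain-dissociated tissue with 10x Genomics 3' chemistry. There is therefore no replicate, no test and no p-value. Intervals are 95% and cover counting error only.

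Astrocytes are glia that tile the whole hippocampus, take up transmitter and ions, contact vessels and secrete proteins. GFAP is the intermediate filament of their skeleton. It is abundant in astrocytes of the surface and the white matter, sparse in many grey matter astrocytes, and rises in reactive ones. Lcn2, a secreted iron-carrier binding protein, marks strongly reactive astrocytes, and Tnc encodes the matrix protein tenascin C. Among the 8 genes, Agt, Gdf10, Myoc and Sned1 encode secreted proteins, Padi2 an enzyme, Hhatl a membrane protein of an acyltransferase family, Rhcg a transporter, and Fam184b a protein whose function is little characterised.

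After filtering, 6058 WT cells with 57050779 UMIs (unique molecular identifiers, 1 per captured RNA molecule) and 7515 cells with 69955041 UMIs of 60TM were kept. Clusters with astrocyte markers held 1086 WT cells (17.9%) and 2100 cells of 60TM (27.9%), with medians of 5526.5 and 6834 UMIs per cell. All 12 astrocyte markers were measured. Levels are given as CPM, a gene's UMIs scaled to a common total of the UMIs in the same cells. Slc1a3, a glutamate transporter, stood at 3930 CPM in WT and 4147 in 60TM. The water channel gene Aqp4 stood at 1276 and 885. The gap junction gene Gja1, at 2837 and 1544, and S1pr1, a lipid receptor gene at 1570 and 936, were the 2 markers at least 1.5-fold lower. Of the barcodes, 20 occurred in both libraries. Gfap itself stood at 394 in WT and 1308 in 60TM astrocytes. Whether reads of the human transgene were counted as mouse Gfap was not tested.

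In each of the 8 genes the level in all astrocytes was at least 2-fold lower in the 60TM library, where 1.27% of the 10671 genes with at least 100 UMIs in astrocytes were that much lower. Since the genes were picked on this contrast, nothing is read from that count. Among the secreted proteins, Agt stood at 454 CPM in WT (2829 UMIs) and 173 in 60TM (2754 UMIs), and Gdf10 at 19.4 (121 UMIs) and 3.90 (62 UMIs). Myoc stood at 69.7 (434 UMIs) and 11.5 (183 UMIs), and Sned1 at 39.5 (246 UMIs) and 10.9 (173 UMIs). Padi2 stood at 49.6 (309 UMIs) and 12.95 (206 UMIs), and Hhatl at 60.2 (375 UMIs) and 15.5 (246 UMIs). Rhcg and Fam184b rested on the fewest WT UMIs, at 16.4 (102 UMIs) and 4.59 (73 UMIs) for Rhcg and 17.3 (108 UMIs) and 4.84 (77 UMIs) for Fam184b. The fold differences ran from 2.62 (2.49 to 2.77) in Agt to 6.06 (5.08 to 7.24) in Myoc. Between them lay Rhcg at 3.57 (2.62 to 4.89), Fam184b at 3.58 (2.65 to 4.86), Sned1 at 3.63 (2.98 to 4.44), Padi2 at 3.83 (3.20 to 4.59), Hhatl at 3.89 (3.31 to 4.59) and Gdf10 at 4.98 (3.64 to 6.88), and the intervals of these 6 overlap. Ranked by the upper bound of the ratio, the 8 genes took places between 1 (Myoc) and 16 (Agt). Just inside the range lay Agt, with a ratio of 0.381, and just outside it Tle2, with 0.283 on fewer UMIs. The genes between them in that order that were not picked were Slco1a4, Vtn, Col11a2, Grin3a, Ptgs1, Gabbr2, Dhcr7 and Mvd.

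The genes share no chromosome cluster. On GRCm38, Agt lies at chr8:124556534-124569706 on the minus strand, Gdf10 at chr14:33923587-33937983 on the plus strand and Myoc at chr1:162639155-162649693 on the plus strand. Sned1 lies on the same chromosome at chr1:93235841-93301065, plus strand. Padi2 lies at chr4:140906344-140952586 (plus), Hhatl at chr9:121784016-121792507 (minus), Rhcg at chr7:79593363-79617657 (minus) and Fam184b at chr5:45529705-45639614 (minus). All are annotated as protein-coding genes in GENCODE M21. In 4 of them a gene on the opposite strand overlaps: Myocos with Myoc, Gm13031 with Padi2, Mterf4 with Sned1 and 9630001P10Rik with Fam184b. No source used here says whether the counting used strand. The antisense gene 9630001P10Rik was itself 3.32-fold lower, at 15.3 CPM in WT and 4.59 in 60TM astrocytes, and whether reads were shared between the pair was not tested.

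Promoters are described because all 8 genes differed in the same direction, which the choice of genes fixed. RefSeq (GRCm38.p6) gives 9 start sites for the 8 genes, and the 250 bases upstream of each were searched on both strands. The TATA box letters TATAAA stood in 2 of the 9, those of Agt and Myoc, against 12.4% of 32851 promoters of all genes. These 2 are shown, with the TATA box in capitals. It begins 30 bases before the start site in Agt and 26 bases before it in Myoc.
Agt, chr8:124569707-124569956, minus strand: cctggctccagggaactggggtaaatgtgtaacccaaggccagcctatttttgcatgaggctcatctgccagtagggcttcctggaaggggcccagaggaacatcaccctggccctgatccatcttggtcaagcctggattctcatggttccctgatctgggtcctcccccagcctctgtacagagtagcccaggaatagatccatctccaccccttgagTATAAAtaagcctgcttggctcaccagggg
Myoc, chr1:162638900-162639149, plus strand: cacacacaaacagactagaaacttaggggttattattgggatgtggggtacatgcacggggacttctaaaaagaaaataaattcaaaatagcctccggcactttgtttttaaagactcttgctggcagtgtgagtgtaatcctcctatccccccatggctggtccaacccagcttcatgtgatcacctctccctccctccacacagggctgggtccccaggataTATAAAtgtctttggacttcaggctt
The GC box GGGCGG was found in 5 of the 9 promoters (32.7% of all), and CANNTG in 5 (66.2% of all). TTCNNNGAA was found in 2 (7.02% of all), while TTGGCA and TGANTCA were found in none (12.3% and 6.75% of all). A match is a description of these letters and not a binding site. No letter pattern searched was common to all of the genes.

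**Figure D1:**
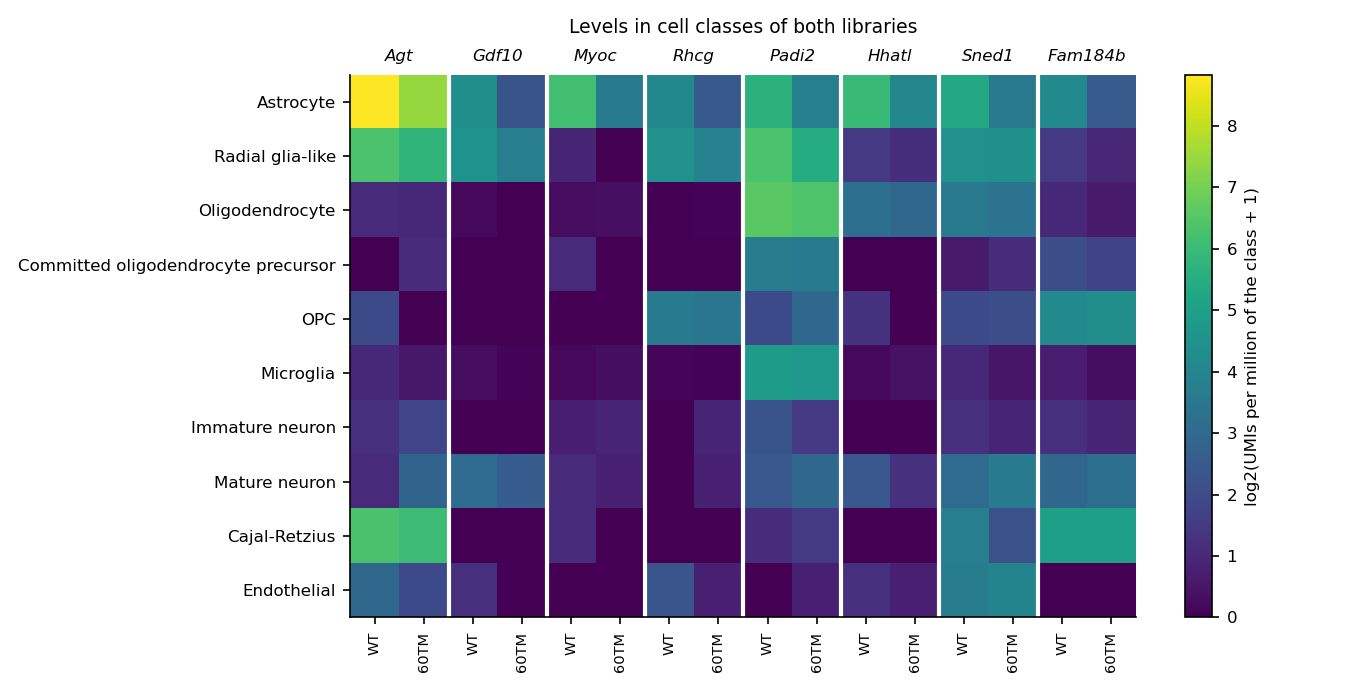
Levels of the 8 genes in 10 cell classes, as log2 of CPM plus 1, with the WT and 60TM libraries side by side under each gene. Agt stood highest in astrocytes of both libraries (454 and 173 CPM), while Padi2 was highest in oligodendrocytes (93.8 and 83.8).

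Agt and Myoc were largely astrocyte RNAs in both libraries. In WT, astrocytes held 92.5% of the Agt UMIs, 96.4% of Myoc, 74.7% of Gdf10 and 73.9% of Rhcg. They held 54.5% of Fam184b, 44.0% of Hhatl and 36.9% of Sned1, and 10.2% of Padi2. In 60TM the shares were 90.6% of Agt and 93.8% of Myoc, but 55.9% of Gdf10 and 52.9% of Rhcg, close to Hhatl at 54.7% and Fam184b at 49.0%, with Sned1 at 33.0% and Padi2 at 9.93%. Such shares depend on the sizes of the classes as well as on levels. Oligodendrocytes were 1416 cells in WT and 766 in 60TM, and radial glia-like cells 141 and 380. Of the Hhatl UMIs in WT, 31.8% came from 127 ependymal cells, which line the ventricles.

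Outside astrocytes, leaving aside classes under 50 cells in either library, 100 UMIs were reached by Padi2, Hhatl and Sned1 in oligodendrocytes, by Padi2 in microglia, by Agt and Padi2 in radial glia-like cells and by Agt in Cajal-Retzius cells, and in none of these was the gene 2-fold lower. Padi2 in oligodendrocytes, its main source here, stood at 93.8 CPM in WT (89.9 to 97.8) and 83.8 in 60TM (79.0 to 88.7), a ratio of 0.893 (0.831 to 0.959). The 2-fold lower share of all genes tested in oligodendrocytes was 0.251%. In microglia, where 0.265% of genes were 2-fold lower, Padi2 stood at 27.6 and 25.3, a ratio of 0.917 whose interval (0.798 to 1.06) includes 1. Sned1 and Hhatl were also measured in oligodendrocytes, with ratios of 0.848 (0.682 to 1.05) and 0.835 (0.648 to 1.07). The interval of the ratio excluded 1 only for Padi2 among the ratios given for oligodendrocytes and microglia, and that difference was 1.12-fold. Ependymal cells, with 127 cells in WT but only 43 in 60TM, are given without a ratio. Hhatl in them stood at 120 CPM in WT (106 to 135) and 130 in 60TM (103 to 161). Sned1 was higher there in 60TM, at 31.4 (24.5 to 39.6) and 58.7 (41.3 to 80.8), and these intervals do not overlap. Agt stood at 10.2 (6.45 to 15.3) and 25.4 (14.5 to 41.2), on 23 and 16 UMIs, also higher in 60TM though the intervals overlap. Padi2 stood at 15.9 in both.

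Radial glia-like cells were named from markers of the stem cells of the dentate gyrus, which share many astrocyte genes. Agt in them was 79.4 CPM in WT (63.9 to 97.5) and 53.8 in 60TM (46.1 to 62.4), a ratio of 0.677 (0.522 to 0.883). For Padi2 the levels were 78.5 (63.2 to 96.5) and 43.2 (36.3 to 51.0), a ratio of 0.550 (0.419 to 0.725). In that class 0.404% of genes tested were 2-fold lower. Sned1 was at 20.9 and 20.8 there, while Gdf10 (21.8 and 12.7) and Rhcg (20.9 and 14.0) had ratio intervals that include 1. Gfap in the same cells stood at 450 and 1094. Cajal-Retzius cells, an early-born neuron type in which 0.11% of genes were 2-fold lower, carried Agt at 76.9 and 64.7 and Fam184b at 30.3 and 30.5, and the intervals of both ratios include 1.

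Astrocytes were divided into 5 states by set limits on genes outside the 8. A cell with any Lcn2 UMI was Lcn2-positive, a remaining cell with any Tnc UMI was Tnc-positive, then a cell with at least 5 Gfap UMIs per 10000 was Gfap-high, one without Gfap was Gfap-zero, and the rest were Gfap-low. The shares differed widely between the libraries. The Lcn2-positive state had no WT cell (0 of 1086, which at a limit of 3 cells allows up to 0.276% with an Lcn2 UMI) and 477 cells of 60TM, 22.7% of astrocytes. Gfap-high cells were 180 in WT (16.6%) and 863 in 60TM (41.1%). Gfap-zero cells were 432 in WT (39.8%) and 292 in 60TM (13.9%). Tnc-positive cells were 162 (14.9%) and 88 (4.19%), and Gfap-low cells 312 (28.7%) and 380 (18.1%). The states are ranges of a few genes that themselves differ in 60TM, so cells of 1 state in the 2 libraries need not be the same type. Near the Gfap boundary, between 4 and 6 UMIs per 10000, lay 8.10% of WT and 8.19% of 60TM astrocytes. Depth differed within the Gfap-high state, with a median of 3264.5 UMIs in WT and 6415 in 60TM. In a cell under 2000 UMIs, 1 Gfap UMI is already more than 5 per 10000. Such a cell without Lcn2 and Tnc could only be Gfap-zero or Gfap-high. That depth was reached by 117 of the 180 WT Gfap-high cells and by 730 of the 863 in 60TM. All Gfap-low cells reached it. The Gfap states thus depend on depth as well as on Gfap.

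**Figure D2:**
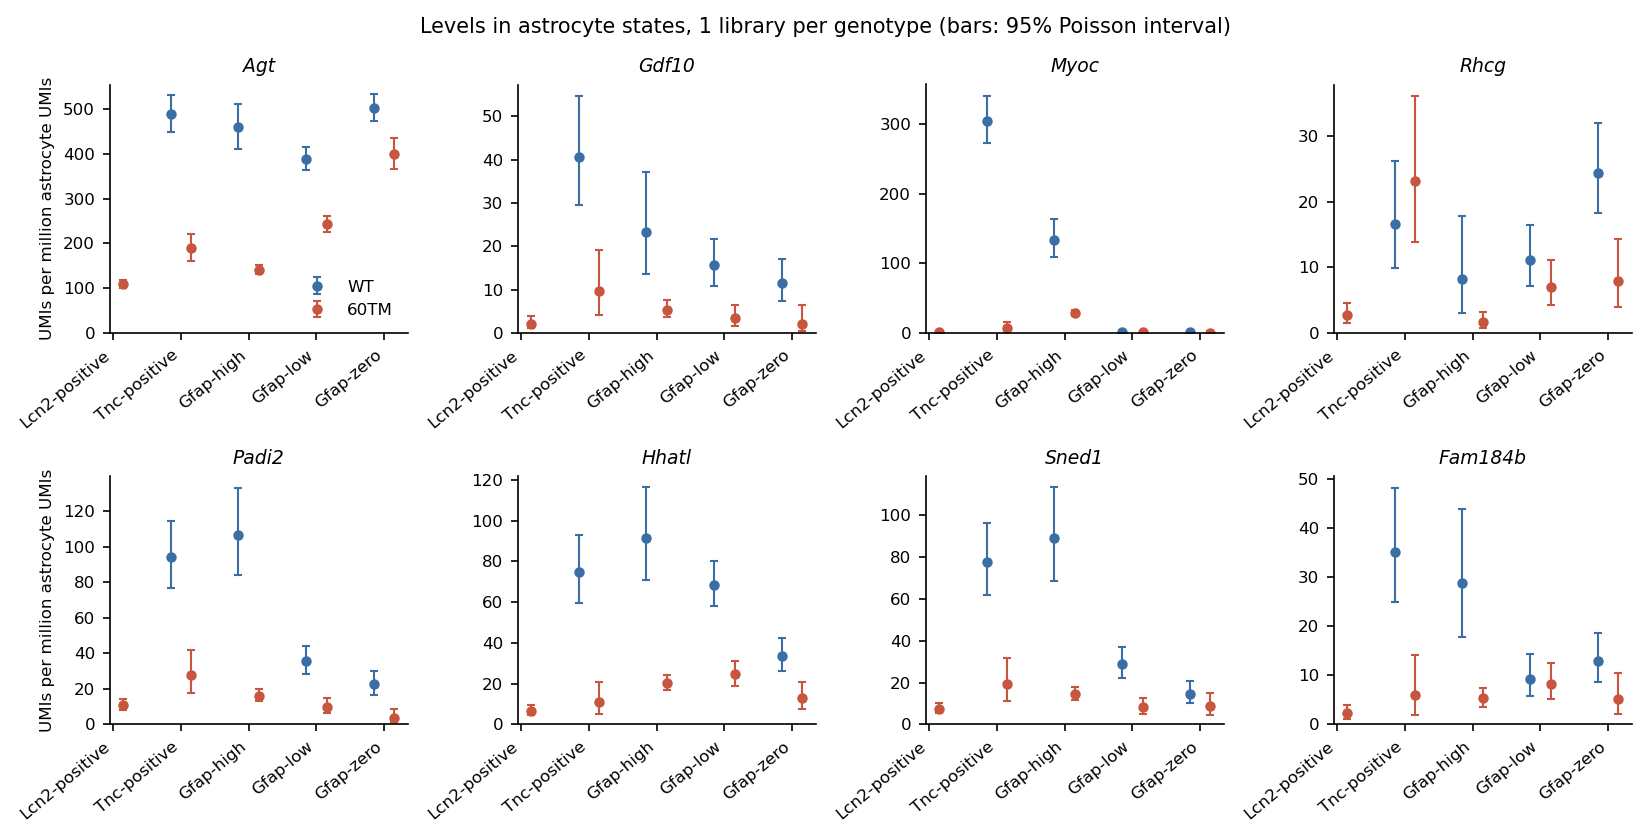
Level of each gene (CPM of the state's UMIs, own axis per gene) in the 5 astrocyte states of the WT (blue) and 60TM (red) library, with 95% Poisson bars. In Gfap-high cells each of the 8 genes lay lower in 60TM, and the Lcn2-positive state has no WT point.

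Among the secreted proteins, angiotensinogen (Agt), the precursor from which renin cuts angiotensin, was lower in 60TM by a factor that varied between states. In WT it stood at 503 CPM in Gfap-zero cells (473 to 534), 489 in Tnc-positive cells (448 to 533), 459 in Gfap-high cells (412 to 511) and 389 in Gfap-low cells (363 to 415). The WT levels of neighbouring states overlap. In 60TM the levels were 400 in Gfap-zero cells (367 to 435), 243 in Gfap-low (225 to 262), 190 in Tnc-positive (161 to 222), 142 in Gfap-high (132 to 151) and 110 in Lcn2-positive cells (101 to 119), and no neighbours overlap. Agt was thus 1.26-fold lower (1.13 to 1.39) in Gfap-zero cells and 3.25-fold lower (2.85 to 3.69) in Gfap-high cells. Of the 16 genes listed for the renin-angiotensin system, 5 had at least 20 UMIs in astrocytes. None of these was at least 1.5-fold higher and 1 was lower (Ace, on 10 and 16 UMIs), while over the 13512 genes with at least 20 UMIs 10% were higher and 11.5% lower. The counts of the other gene lists use the same limits and stand against the same shares. Ctsd, a lysosomal protease, stood at 370 and 404. Renin (Ren1) had 1 UMI in each library, and the angiotensin receptor gene Agtr1a 0 in WT and 1 in 60TM.

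Gdf10, a ligand of the transforming growth factor family known from Bergmann glia of the cerebellum, was lower in every state measured in both libraries. In WT it stood at 40.7 in Tnc-positive cells (29.6 to 54.6), 23.3 in Gfap-high, 15.6 in Gfap-low and 11.5 in Gfap-zero cells. In 60TM the values were 9.74, 5.30, 3.35 and 2.18, and 2.13 in Lcn2-positive cells. The fold differences were 4.18 in Tnc-positive, 4.39 in Gfap-high, 4.64 in Gfap-low and 5.29 in Gfap-zero cells, and each of the 4 intervals excludes 1. The Gfap-zero value of 60TM rests on 3 UMIs. The size depends on how the states are drawn: over all Gfap-high cells, those with Lcn2 or Tnc included, it was 8.5-fold (5.44 to 13.2), and over all cells with Tnc 5.52-fold. Of 33 measured genes of the TGF-beta and BMP list, 5 were at least 1.5-fold higher and 3 lower, with a median log2 ratio (5 CPM added) of -0.01 against -0.05 for all genes. The activin subunit gene Inhba was lower (10.4 and 4.34), and Gdf15, a stress-induced ligand, had 2 UMIs in WT and 555 in 60TM.

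Myoc, which encodes the secreted olfactomedin-domain protein myocilin, rested on very few cells. Only 21 of 1086 WT astrocytes (1.93%, 1.20 to 2.94) and 14 of 2100 in 60TM (0.667%, 0.365 to 1.12) had any Myoc UMI. The first 3 WT cells held 221, 70 and 37 of 434 UMIs, and the first 3 cells of 60TM held 71, 50 and 27 of 183. Counting intervals take UMIs as independent and are therefore too narrow for Myoc. By level Myoc was 6.06-fold lower, and without the 1 cell with the most UMIs in each library 4.87-fold lower. In Tnc-positive cells it stood at 305 in WT (330 UMIs) and 7.30 in 60TM (6 UMIs), in Gfap-high cells at 134 and 28.7. In Gfap-low and Gfap-zero cells at most 4 UMIs were seen in either library. The 21 WT cells carried Gfap at 4582 CPM, against 299 in other WT astrocytes. In 60TM the 14 cells carried it at 4535, against 1274. The WT Myoc cells also carried Padi2 at 362 (269 to 478) and Agt at 812 (669 to 977), and those of 60TM at 59.8 (28.7 to 110) and 71.7 (37.1 to 125). Both were thus lower in Myoc cells of 60TM than in those of WT. The WT cell with 221 Myoc UMIs (29553 UMIs in all) held 394 of the 632 Gfap UMIs of the 21 cells. It also held 24 of their 50 Padi2 UMIs. The WT levels of Gfap and Padi2 in Myoc cells thus rest in large part on 1 cell. That cell further held 930 astrocyte marker UMIs and 11 oligodendrocyte marker UMIs. Of the 11 olfactomedin family genes, 2 were at least 1.5-fold higher and 4 lower in all astrocytes, with Olfm2 at 3.21 and 16.6 and the latrophilin gene Adgrl1 at 126 and 78.5.

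Sned1 encodes a matrix protein with nidogen and sushi domains. In WT it was higher in cells with more Gfap or with Tnc, from 14.8 in Gfap-zero cells (10.1 to 20.8) through 28.9 in Gfap-low cells (22.3 to 36.9) to 77.7 in Tnc-positive cells (61.9 to 96.1) and 88.9 in Gfap-high cells (68.6 to 113), of which only the last 2 overlap. In 60TM the values were 8.72, 8.20, 19.5 and 14.4, with 7.54 in Lcn2-positive cells, and the intervals of neighbouring states overlap. The fold difference was 6.19 (4.41 to 8.66) in Gfap-high cells, 3.99 in Tnc-positive cells and 3.53 in Gfap-low cells. In Gfap-zero cells it was 1.69, and the interval (0.849 to 3.61) includes no difference. Of 18 matrix glycoprotein genes, 3 were at least 1.5-fold higher and 6 lower, against 10% and 11.5% of all genes. The collagen gene Col11a2 stood at 67.8 and 21.1, the proteoglycan gene Ncan at 233 and 111, and Fbln5, an elastic fibre gene, at 2.57 and 18.9. Of 16 further genes for secreted astrocyte proteins none was higher and 3 were lower: Mfge8 (1981 and 810), a bridging protein in phagocytosis, the alarmin gene Il33 (99.9 and 60.1) and the growth factor gene Fgf1 (59.9 and 39.3).

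Padi2 encodes peptidylarginine deiminase 2, which turns arginine in proteins into citrulline and has GFAP among its known substrates. In WT astrocytes it was highest in Gfap-high (107, 84.3 to 133) and Tnc-positive cells (94.3, 76.9 to 114), lower in Gfap-low cells (35.6, 28.2 to 44.3) and Gfap-zero cells (22.6, 16.7 to 29.9). Of the 102 Padi2 UMIs in WT Tnc-positive cells, 24 lay in the cell with 221 Myoc UMIs. The counting intervals for that state do not allow for this. In 60TM Padi2 stood at 16.1 in Gfap-high, 28.0 in Tnc-positive, 10.1 in Gfap-low and 3.63 in Gfap-zero cells, and 57 UMIs were seen in Lcn2-positive cells. The difference was 6.64-fold in Gfap-high cells (4.85 to 9.06), 3.37-fold in Tnc-positive cells (2.13 to 5.55) and 3.54-fold in Gfap-low cells (2.26 to 5.69). In Gfap-zero cells it was 6.23-fold (2.49 to 20.0), on 5 UMIs in 60TM. Microglia and oligodendrocytes also carry Padi2. Oligodendrocyte markers, 9 of 9 measured, summed to 459 CPM in WT astrocytes and 381 in 60TM, and their part in the result was not tested. Of 4 measured genes of citrulline handling 1 was higher and 0 lower, with Ddah2 at 77.2 and 121.

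Hhatl is related to the enzyme that attaches a fatty acid to hedgehog ligands. In WT it stood at 91.6 in Gfap-high cells (71.0 to 116), 74.9 in Tnc-positive (59.5 to 93.1), 68.5 in Gfap-low (58.1 to 80.2) and 33.7 in Gfap-zero cells (26.4 to 42.3). In 60TM the values were 20.2 in Gfap-high, 24.6 in Gfap-low, 13.1 in Gfap-zero and 6.77 in Lcn2-positive cells, with 9 UMIs in Tnc-positive cells. Hhatl was lower in each of the 4 states with both libraries, by 4.54-fold (3.31 to 6.18) in Gfap-high, 6.83-fold in Tnc-positive, 2.79-fold in Gfap-low and 2.58-fold (1.52 to 4.59) in Gfap-zero cells. Of 14 hedgehog pathway and acyltransferase genes none was 1.5-fold higher and 3 were lower, with a median log2 ratio of -0.29. They were Hhip, a hedgehog inhibitor and target gene (13.3 and 5.28), Gli1, a hedgehog-induced transcription factor (17.2 and 9.24), and the coreceptor gene Cdon, on 18 and 22 UMIs. Hhat, the hedgehog enzyme itself, had 4 and 10 UMIs.

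Rhcg, an ammonium transporter of the Rhesus family, had its highest WT level in Gfap-zero cells, at 24.5 from 53 UMIs, where 60TM stood at 7.99 (3.99 to 14.3), a 3.06-fold difference (1.58 to 6.50). In Gfap-high cells it stood at 8.21 and 1.71, from 6 and 10 UMIs. In Gfap-low cells the values were 11.1 and 7.08, and in Tnc-positive cells 16.6 and 23.1, and both intervals include no difference. Of the 19 Rhcg UMIs in Tnc-positive cells of 60TM, 1 cell held 12. Lcn2-positive cells stood at 2.71. Of 9 measured ammonium and acid-base transport genes none was 1.5-fold higher and 1 was lower, the carbonic anhydrase gene Car2 (702 and 429). The related transporters Rhag and Rhbg had 0 and 1 UMIs in astrocytes of both libraries together.

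Fam184b stood at 35.1 in WT Tnc-positive cells (24.9 to 48.2), 28.7 in Gfap-high (17.8 to 43.9), 12.9 in Gfap-zero and 9.34 in Gfap-low cells. In 60TM the values were 6.09, 5.30, 5.08 and 8.20, and 2.32 in Lcn2-positive cells. The difference was 5.77-fold (2.27 to 18.8) in Tnc-positive cells, 5.42-fold (2.96 to 9.74) in Gfap-high cells and 2.54-fold (1.08 to 6.89) in Gfap-zero cells. In Gfap-low cells it was 1.14-fold, and the interval (0.596 to 2.17) includes no difference.

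Counted over the states, all 8 genes were at least 2-fold lower in Gfap-high cells, where 2.69% of genes tested were. In Tnc-positive cells 7 of 8 were (all genes: 1.76%), in Gfap-low cells 5 of 8 (0.593%), among them Myoc on 4 and 2 UMIs with an interval of the ratio that includes 1 (0.0379 to 2.92), and in Gfap-zero cells 5 of the 7 with more than 3 UMIs in a library (0.361%). Those shares are of genes with at least 100 UMIs in the state. Only 5 of the 8 genes reached that minimum in Gfap-high cells, 4 in Tnc-positive, 3 in Gfap-low and 1 in Gfap-zero cells. For all astrocytes without the Lcn2-positive state, the 8 genes were between 2.23-fold (Agt) and 4.25-fold (Myoc) lower, against 0.894% of genes past 2-fold. The states divide the same astrocytes on which the genes were picked, so nothing is read from these counts against the shares.

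To separate levels from shares, the 60TM level of each state was weighted by the share of UMIs that state had in WT. The resulting ratio to WT is the part within states, and what remains of the total ratio is the part from shares. Within states Padi2 was 4.26-fold lower (ratio 0.235, 0.164 to 0.334), Gdf10 4.54-fold (0.220, 0.120 to 0.399), Sned1 3.57-fold (0.280, 0.190 to 0.410) and Hhatl 3.40-fold (0.294, 0.219 to 0.395). For these 4 genes the part from shares lay between 0.899-fold and 1.14-fold lower. Fam184b was 2.71-fold lower within states and 1.32-fold from shares. Agt was 1.64-fold lower within states (0.609, 0.557 to 0.666) and 1.60-fold from shares, so that 51.4% of its log change lay within states. In Rhcg the parts were 1.71-fold (0.583, 0.354 to 0.954) and 2.08-fold, and 42.4% lay within. The balance depends on the weighting, in these 2 genes and in others. Lcn2-positive cells have no weight in WT, so all of their difference counts as shares. Without them Agt was 1.64-fold lower within states and 1.36-fold from shares (61.9% within), and with the 60TM shares as weights 2.21-fold and 1.01-fold (98.7%). Rhcg went in the same way from 1.71-fold and 1.74-fold (49.4% within) to 2.12-fold and 1.40-fold (68.9%). Myoc was 14.2-fold lower within states, and the shares moved it the other way, by a ratio of 2.34. Gfap-high cells held 168 of its 183 UMIs in 60TM, and made up 36.8% of astrocyte UMIs there against 11.7% in WT. The weighting moved the other genes too. Without Lcn2-positive cells, 60TM shares as weights in place of WT shares took Sned1 within states from 3.57-fold to 5.09-fold lower. Padi2 went from 4.26-fold to 5.56-fold, Fam184b from 2.71-fold to 3.69-fold and Hhatl from 3.40-fold to 3.92-fold. Myoc went from 14.2-fold to 5.91-fold and Gdf10 from 4.54-fold to 4.45-fold. The part from shares in Fam184b turned from 1.06-fold lower to a ratio of 1.29. With all astrocytes and WT shares as weights, the median over the 8 genes was 3.49-fold within states and 1.12-fold from shares. By that weighting 6 of 8 were at least 2-fold lower within states. No share of all genes stands beside that count, and the genes were picked on these same astrocytes, so nothing is read from it.

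Clusters gave a partly different division from the limits on 3 genes. One astrocyte cluster, led by Igfbp5, Col11a2, Tnc and Sned1, held 318 WT cells (29.3% of astrocytes) and 161 cells of 60TM (7.67%), with medians of 2651 and 2068 UMIs. It held 18 of the 21 WT Myoc cells and 4 of the 14 of 60TM, and 431 of the 434 WT Myoc UMIs. With the clusters in place of the states, Myoc was 1.36-fold lower within clusters (interval of the ratio 0.560 to 0.956) and 4.44-fold through their shares. Sned1 was 1.53-fold lower within and 2.37-fold through shares, and Padi2 2.22-fold within and 1.73-fold through shares. The other 5 genes lay between 1.72-fold and 3.91-fold lower within clusters. As the 8 genes took part in that clustering, it was repeated without them and without Lcn2, Tnc and Gfap, which named 940 WT and 1988 60TM cells astrocytes. Myoc was then 3.26-fold lower within clusters, Sned1 2.48-fold and Padi2 3.62-fold, and the median over the 8 genes was 2.63-fold within and 1.48-fold through shares. In both clusterings each of the 8 intervals within clusters lies below 1. The genes were picked for low ratios in these same astrocytes, so nothing is read from that. The intervals of Myoc are too narrow, as its UMIs lie in few cells. Clusters almost without WT cells have next to no weight, so nearly all of their difference counts as shares. In the first clustering such clusters held 577 and 42 cells of 60TM against 1 and 0 of WT. In the second they held 850 and 35 against 8 and 0. In these 3 divisions each gene was lower within groups of cells, while the size for Myoc, Sned1 and Padi2 differed with the grouping. Without the 2 shallow astrocyte clusters, those with a median under 3000 UMIs, Myoc was left with 2 UMIs in WT and 42 in 60TM, and its ratio in astrocytes turned to 7.04 (1.83 to 60.0). The other 7 genes were still between 2.03-fold and 4.24-fold lower in astrocytes, and the median within states over the 8 genes became 2.20-fold. With Gfap-high cells taken before Tnc-positive ones, the ratio of Rhcg within states was 1.03.

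**Figure D3:**
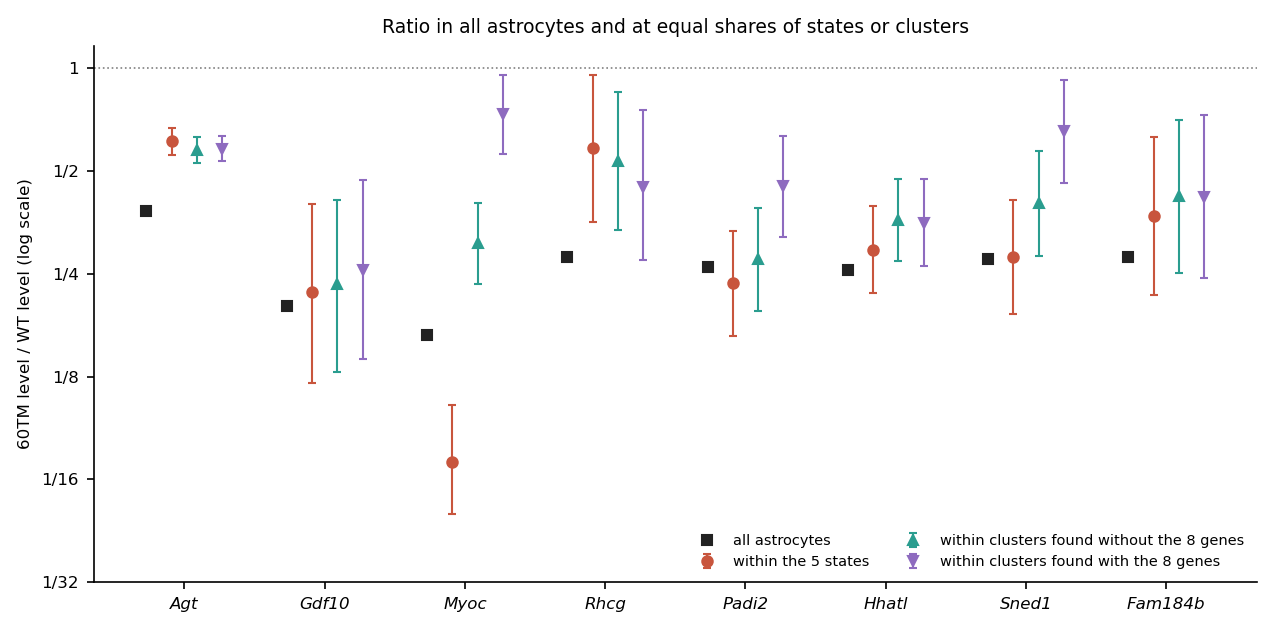
Ratio of 60TM to WT for each gene (log scale, 1 is no difference): all astrocytes (black squares), and at equal shares of the 5 states (red), of clusters found without the genes (green) and of clusters found with them (purple), with 95% counting intervals. All points lie below 1, and those of Myoc range from a ratio of 0.0704 to 0.734.

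The cell's own Gfap level was then used as an axis, over the 1086 WT and 1623 60TM astrocytes outside the Lcn2-positive state. In cells without Gfap the median ratio over the 7 genes with more than 3 UMIs was 0.336 (469 WT and 296 60TM cells). The bins with more Gfap had lower median ratios: 0.281 between 2 and 5 Gfap UMIs per 10000, 0.251 between 5 and 10, 0.156 between 10 and 20, and 0.113 at 20 and above (42 WT and 200 60TM cells), over 7 or 8 genes each. In the bin above 0 and up to 2 the median was 0.464, above that of cells without Gfap. Only deeper cells can enter that bin, since 1 Gfap UMI is more than 2 per 10000 in a shallow cell. A shallow cell with 1 Gfap UMI falls into a higher bin instead, so the bins also depend on depth. From cells without Gfap to the last bin the ratio fell in Agt, Hhatl, Padi2 and Sned1. It did not fall in Gdf10 (0.163 and 0.229, on 4 WT UMIs in the last bin) or Fam184b (0.302 and 0.381, on 2). Myoc and Rhcg were not compared in both bins. With the 477 Lcn2-positive cells included the medians were 0.341 without Gfap, 0.445 up to 2, 0.263, 0.227, 0.146, and 0.0933 at 20 and above. Agt in WT stood at 488 in cells without Gfap, 375 between 2 and 5, and 834 at 20 and above (706 to 979). In 60TM it stood at 399 in cells without Gfap and 102 at 20 and above (84.4 to 122). From the first to the last bin Sned1 went from 16.6 to 172 in WT and from 8.57 to 19.5 in 60TM. Padi2 went from 22.5 to 423 in WT, where the cell of 221 Myoc UMIs alone held 24 of the 76 Padi2 UMIs of the last bin, and went from 3.57 to 27.1 in 60TM. So in WT, Agt, Sned1 and Padi2 were higher in the cells richest in Gfap than in those without it, and in 60TM Agt was lower in them. Immediate early genes, which respond to stress and dissociation, moved with the genotype and with Gfap. Their 10 members summed to 225 CPM in WT and 426 in 60TM Gfap-zero cells, and to 347 and 1307 in Gfap-high cells. In Lcn2-positive cells they summed to 1665, and their part in the result was not tested.

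**Figure D4:**
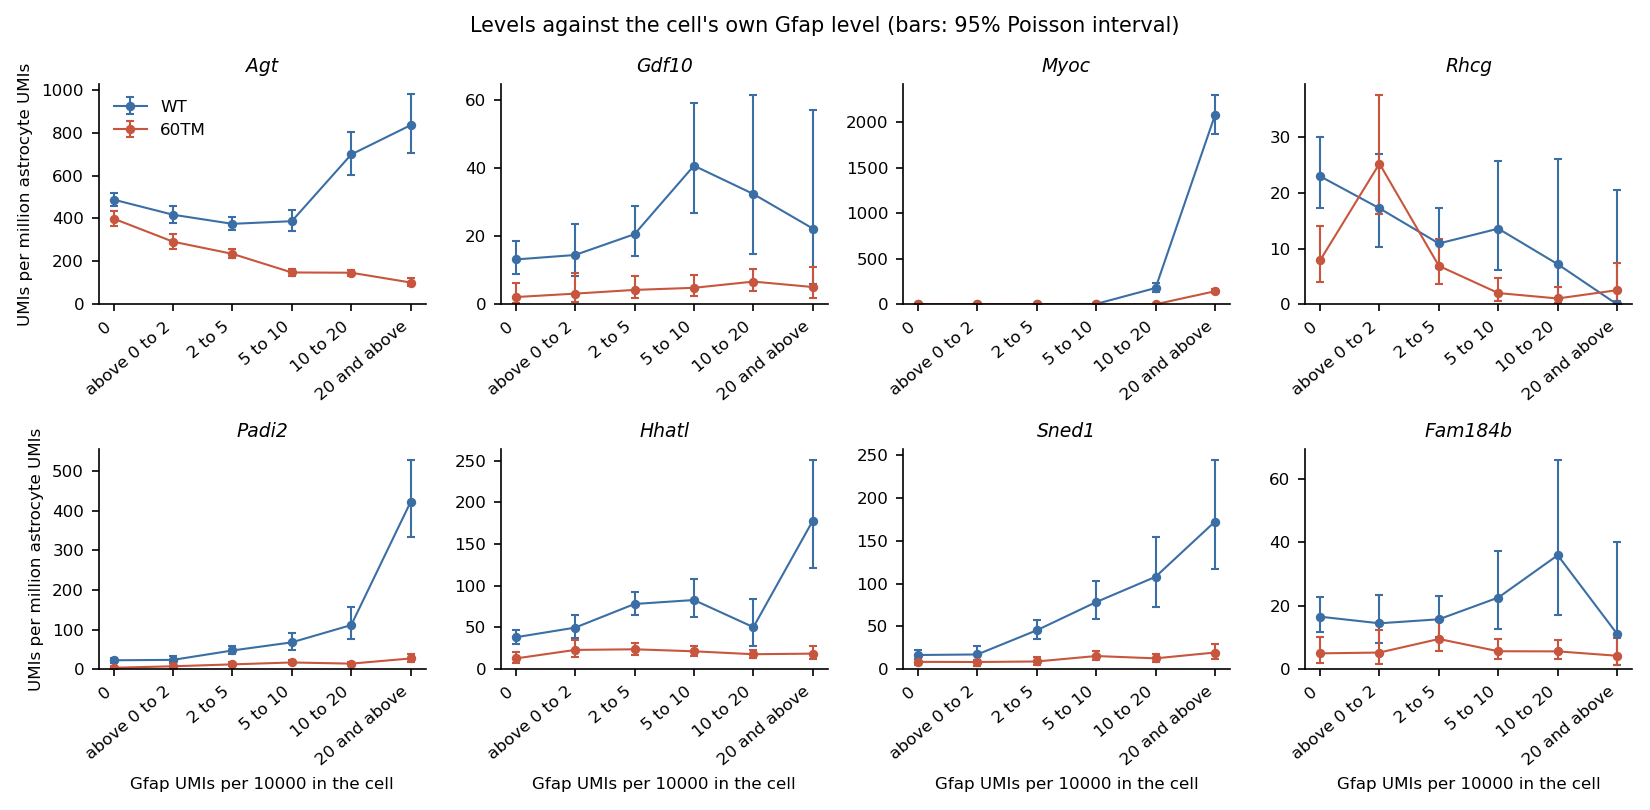
Level of each gene (CPM, own axis per gene) in astrocytes outside the Lcn2-positive state, binned by their own Gfap UMIs per 10000, WT in blue and 60TM in red, with 95% Poisson bars. For Agt the WT line rises to 834 at the right while the 60TM line falls to 102.

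Shares of cells were compared at a fixed depth. After each cell was thinned to 2000 UMIs, with shallower cells left out (904 WT and 1840 60TM astrocytes remained), Agt was seen in 48.2% of WT astrocytes (44.9 to 51.5) and 24.9% of those of 60TM. Before thinning it was 65.9% and 45.4%. In microglia, which should lack Agt, the thinned shares were 0.247% and 0.0411%, at medians of 5648 and 6865 UMIs before thinning. Hhatl was seen in 10.2% and 3.42% of thinned astrocytes, Padi2 in 8.96% and 2.72%, and Sned1 in 8.30% and 2.28%. For Padi2 microglia give no background, since they carry it themselves, at 5.78% and 5.18%. For the other 7 genes the microglial share was at most 0.247%. Gdf10 was seen in 3.98% and 0.870%, Rhcg in 3.10% and 0.761%, and Myoc in 1.66% and 0.326%. Fam184b was seen in 2.43% (1.53 to 3.66) and 1.47% (0.969 to 2.13), and these intervals overlap. Thinning draws UMIs at random, and for Fam184b this draw lay away from the exact mean over all draws, 3.46% in WT and 0.992% in 60TM. In Gfap-zero cells the draw gave 0% and 0.948% for Fam184b against means of 2.13% and 1.16%, and in Gfap-low cells 1.60% and 2.11% against 1.65% and 1.49%. The order of the libraries thus turned with the draw in both states. None of the 8 genes was seen in 36.1% of WT astrocytes (32.9 to 39.3) and 67.1% of those of 60TM (64.9 to 69.2), against 93.5% and 94.4% of microglia. The microglial values include Padi2, for which microglia give no background. Agt, seen in far more astrocytes than any other of the 8 genes, weighs most in the astrocyte values. At least 3 of the 8 genes were seen in 5.09% of WT and 0.326% of 60TM astrocytes. Within Gfap-high cells those with none were 28.2% in WT and 68.8% in 60TM, and in Gfap-zero cells 38.9% and 51.7%.

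**Figure D5:**
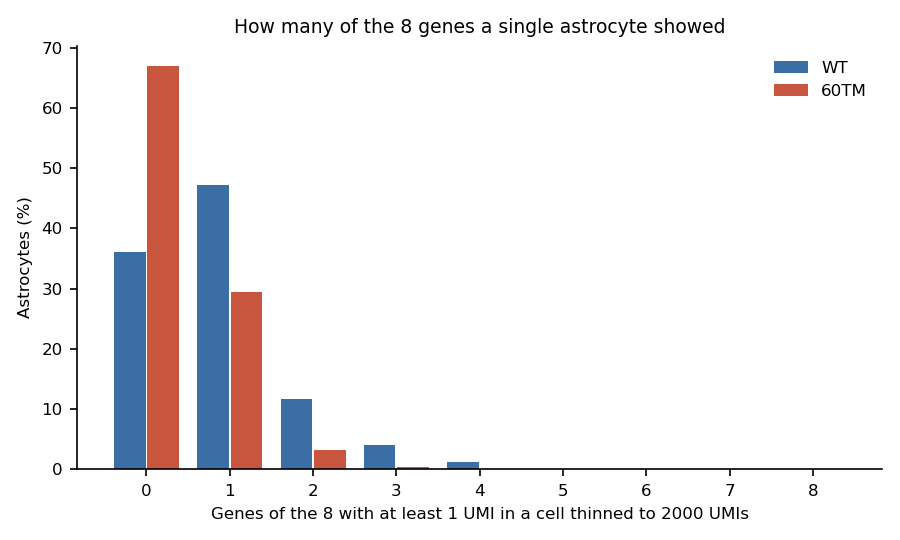
Share of astrocytes (%) by how many of the 8 genes had at least 1 UMI in the cell after thinning to 2000 UMIs, WT in blue and 60TM in red. The column at 0 genes stands at 36.1% in WT and 67.1% in 60TM.

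Except for that of astrocytes outside the telencephalon, the lists for the position of astrocytes had members in both directions. Over all genes 10% were 1.5-fold higher and 11.5% lower. Of 8 measured genes of surface and white matter astrocytes, Gfap and Vim, another filament gene (120 and 730), were at least 1.5-fold higher, and Tnc (262 and 239 UMIs) and Igfbp5 (125 and 69.9) were lower. Of 5 measured genes of astrocytes outside the telencephalon none was higher and 2 were lower, and of 7 telencephalic ones 2 were higher and 2 lower. The list outside the telencephalon summed to 856 CPM in WT and 584 in 60TM astrocytes. Within states its sum was 699 and 586 in Gfap-high cells but 792 and 845 in Gfap-low cells. The summed level of the 7 telencephalic genes was lower in 60TM, at 2633 and 1350 CPM, of which Mfge8 alone gave 1981 and 810. It was lower in each of the 4 states with both libraries, from 3111 and 2305 in Gfap-zero cells to 1775 and 1286 in Gfap-high cells. RNA of other cells in the astrocyte clusters also differed between the libraries. The summed choroid plexus markers stood at 62.5 CPM in WT and 511 in 60TM astrocytes, of which Ttr alone gave 26.5 and 465. Endothelial markers stood at 54.6 and 20.6, fibroblast markers at 20.6 and 10.8 and microglial markers at 141 and 163. No marker of the choroid plexus, fibroblast, endothelial, microglial or oligodendrocyte lists was at 0 in both libraries. The part of such RNA in the 8 ratios was not tested. With the microglial level of each gene subtracted as free RNA, the ratios of the 7 genes other than Padi2 lay between 0.162 and 0.381, each within its counting interval.

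Over the 9 combinations of state and library, the genes whose level ran most like that of each of the 8 were found among 5862 genes with at least 500 UMIs in astrocytes. For Agt these were Amigo1 (Pearson r = 0.99), Vegfa (0.99) and Pcmtd2 (0.98). For Gdf10 they included Emp2 (0.97) and Epha5 (0.96), for Padi2 Epha4, Slc20a1 and Emp2 (0.97 each), and for Sned1 Slc20a1, Arntl and Psap (0.97 to 0.98). Hhatl ran most like B3galt1, Agmo and Scara3 (0.96 to 0.97), Fam184b like Emc10, Fgfbp3 and Fkbp2 (0.97 to 0.98), and Rhcg like Itga6, Cbl and Prpsap2 (0.93 to 0.94). Those of Myoc were Brd3, Cbx3 and Idh3g (0.91 to 0.92). The 9 points share 2 libraries, and such values are a description. Vegfa, the vascular growth factor gene, stood at 262 and 143 CPM in all astrocytes.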

How the data were processed

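The deposited values are counts of UMIs per gene and cell, made by the authors with Cell Ranger 5.0.0 on GRCm38, per the submitters' processing notes; the deposited gene and barcode lists name their rows and columns. Whether intronic reads were counted is not stated. Cells with under 500 genes or over 15% mitochondrial UMIs, and the cells of highest Scrublet doublet score per library, as many as the expected rate gives (377 of WT, 610 of 60TM), were removed. Cells were clustered (scanpy 1.11.5, 2000 variable genes, 30 components, Leiden resolution 1) and named from 165 marker genes of 22 classes. UMIs were summed per library and class or state. Intervals are exact: Poisson for levels, conditional binomial for ratios, Clopper-Pearson for shares (scipy 1.17.1, numpy 2.4.6, python 3.11.15). They cover counting error only. The sums were checked on simulated data. With 1 library per genotype no test was possible. The 8 genes, the named genes and the lists were chosen with earlier results of these data known. Named genes are the 8, the genes that define the states, the 3 genes most alike in pattern to each, and at most 4 per list with the highest or lowest ratio among those with at least 100 UMIs; other list genes, and those named for a count of 5 or fewer, were chosen after their values were seen. Beside the settings above, 18 other choices and 8 more added after seeing the data were considered. One gene among those most like the members is not reported here.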

Additional observations from a re-analysis of the deposited data

How the results depend on the processing

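No paired analysis was possible because each genotype has 1 library. The genes were picked for a low ratio in astrocytes of these libraries, which every setting reuses. The counts of ratios below 1 are therefore a description and not separate evidence. Over 15 alternative settings the ratio of a gene in all astrocytes was below 1 in 119 of 120 values. Over 21 settings the ratio of a gene within states was below 1 in 166 of 168. The exceptions were Rhcg within states, at 1.03 when Gfap-high was assigned before Tnc-positive, and Myoc, at 7.04 in astrocytes and 4.61 within states without clusters of a median under 3000 UMIs, a choice made after seeing the data. The median fold within states, 3.49, became 2.23 with Leiden clusters as states and 2.20 without the shallow clusters. The count of all genes at least 2-fold lower, 135, became 70 in cells clustered anew with the gene minimum at 200 and mitochondrial UMIs limited to 5%, 75 at the mitochondrial limit alone with the first clusters (chosen after seeing the data), and 448 with a minimum of 20 UMIs. The cause was not tested. Median-ratio scaling moved lower calls from 27.9% to 21.6% of all 2-fold calls. Subtracting free RNA took Padi2 to a ratio of 0.00592, void because microglia, the source of the free level, carry Padi2. Adding unnamed clusters with astrocyte genes was not run, as the first clustering had none. Each of the 5 other clusterings left 1 shallow cluster with astrocyte genes unnamed (152 WT and 123 60TM cells at resolution 0.5), so those settings rest on fewer astrocytes. Over the settings that weight states by WT shares, the percent of the log ratio within states ran from 42.8 to 68.2 in Agt and from -2.14 to 63.1 in Rhcg. It ran from 17.2 to 211 in Myoc, from 33.2 to 116 in Sned1 and from 59.3 to 140 in Padi2. In Gdf10, Hhatl and Fam184b it stayed between 68.3 and 109. Depth limits the low genes most: 3 UMIs stand behind Gdf10 in 60TM Gfap-zero cells.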
